A study of Mus musculus with 13 samples.

Results

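The genes described here are 9 transcripts of hepatic nitrogen handling. Nags, Cps1, Otc, Ass1 and Asl belong to the urea cycle, and Gls2, Hal, Sds and Tat start the breakdown of glutamine, histidine, serine and tyrosine. They were chosen by name, as 9 of 23725 genes in the larger deposited tables, and counts were present for each of the 9. Livers of 13 male C57 mice, each 3 months old, were sequenced. Of these, 5 were neither ligated at the bile duct (BDL) nor treated and are called no BDL, 4 had BDL and miR Control and are called miR-Ctrl BDL, and 4 had BDL and anti-miR-873-5p, a hairpin inhibitor of the microRNA miR-873-5p, and are called anti-miR BDL. BDL ties off the bile duct and leads to cholestasis. Both oligonucleotides were given as 60 µg per mouse into the tail vein at day 3 and day 5 after BDL, and livers were taken at day 7. The no BDL mice are labelled as non treated, and no sham operation is named, so surgery, cholestasis and injection differ together between no BDL and both BDL groups and cannot be told apart. The number of counts per mouse ran from 12185333 to 19689037.

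The urea cycle turns ammonia into urea in the hepatocytes around the portal tract, the periportal zone. Glutaminase 2, the product of Gls2, releases ammonia from glutamine in the same cells, and carbamoyl phosphate synthetase 1 (Cps1) fixes it with the help of N-acetylglutamate, the activator made by the product of Nags. Hepatocytes around the central vein take up the ammonia that escapes and bind it in glutamine through glutamine synthetase (Glul). Many genes of this system are induced by glucagon and glucocorticoids in fasting, Tat and Sds among them.

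RNA levels per kilobase of exon (normalized counts, that is CPM after scaling by TMM, divided by the length of all GENCODE M21 exons of the gene) spanned a wide range in no BDL livers. Ass1 was highest with 1192 ± 199.9 (SD, n = 5), and its lowest mouse lay above the highest mouse of any other member. Cps1 followed with 525 ± 93.5 and Tat with 424 ± 69.2, and the ranges of both overlapped. Sds (112 ± 52.3), Otc (105 ± 20.9), Gls2 (102 ± 20.01) and Asl (95.5 ± 26.1) formed a lower tier in which the order was not separated by the spread. Hal had 58.1 ± 20.7 and overlapped with Asl. Nags was lowest with 27.8 ± 3.77, and its highest mouse (32.7) lay below the lowest mouse of Hal (39.2). All 8 hepatocyte marker transcripts had enough counts to be tested in every comparison. Albumin (Alb) was the most abundant of them with a mean of 60789 normalized counts over the 13 mice. These values describe abundance and do not check the identity of the tissue.

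The genes lie on GRCm38.p6, by RefSeq, at chr11:102145513-102149528 for Nags, chr1:67122426-67231267 for Cps1, chrX:10252230-10321024 for Otc, chr2:31470270-31520670 for Ass1, chr5:130011258-130024381 for Asl, chr10:128194635-128210004 for Gls2, chr10:93488768-93516761 for Hal, chr5:120476547-120483932 for Sds and chr8:109986078-109999804 for Tat. The extents of Nags (Gm11586), Gls2 (Spryd4), Sds (Plbd2) and Tat (Gm45795) overlap another annotated gene, and the library kit does not mark strand, so reads of the overlapping stretches cannot be assigned to 1 gene with certainty.

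A pair of promoters is shown because their genes mark both ends of the differences of the 9 in miR-Ctrl BDL, Hal with the largest fall and Tat with the only positive difference, which did not pass the threshold and turned negative without mouse 3. Sequences are the 120 bases before the start site in RefSeq on GRCm38.p6, both on the plus strand, at chr10:93488648-93488767 for Hal and chr8:109990316-109990435 for Tat. Capitals mark a match, on either strand, to CCAAT (the CCAAT box) or TATAAA (the TATA box).
Hal: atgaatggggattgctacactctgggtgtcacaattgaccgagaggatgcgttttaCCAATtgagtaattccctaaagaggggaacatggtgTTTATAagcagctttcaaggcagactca
Tat: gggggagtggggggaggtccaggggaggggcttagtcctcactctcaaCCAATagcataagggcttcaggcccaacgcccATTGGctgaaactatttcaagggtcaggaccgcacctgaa
Both windows hold CCAAT, which 22.1% of 27025 promoter windows of the same length also hold, and TATAAA, held by 6.76% of them, was found in that of Hal. TTGCNNAA (the C/EBP motif), AAAGTCCA (an HNF4 motif) and the glucocorticoid response element were not found in either window, with 4.16%, 0.463% and 0.0037% of all windows holding them. A match is a description of letters and not of a bound site. The start of Tat used there lies inside the RefSeq extent of the gene. Promoters of 5 of the 9 genes were in the table used.

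The deposited tables were made for 1 comparison each, and a pair of their features bears on these genes. First, mouse 3 of miR-Ctrl BDL and mouse 2 of anti-miR BDL have columns beside no BDL but none in the table that sets both BDL groups against each other, and the methods describe a removal of outliers by clustering and principal components, without naming mice. Both mice stood apart from their groups in the genes described here, so the difference of each of the 9 from no BDL is given with and without them. Second, 773 of 23019 shared genes had different counts in different tables for the same mouse. Where miR-Ctrl BDL is set against no BDL, Cps1 had 72.4% to 80.3% of its count in the other tables, and Nags had 98.3% to 99.5%. Levels of Cps1 and Nags are therefore given from the other tables, which lack miR-Ctrl mouse 3, and each test was run within 1 table.

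In miR-Ctrl BDL livers 6 of the 9 genes were lower than in no BDL livers and none was higher (edgeR quasi-likelihood test, Benjamini-Hochberg adjusted p under 0.05 over 13072 genes). These were Cps1, Otc, Ass1 and Asl of the urea cycle, and Gls2 and Hal. Of all genes tested, 16.6% were lower and 19.1% were higher in this comparison. The median log2 fold change was -0.88 over the 9 genes and -0.01 over all genes tested. Without miR-Ctrl mouse 3, 6 of the 9 were lower, against 20.1% of all genes, with Tat now past the threshold and Ass1 no longer (adjusted p = 0.0543). In anti-miR BDL livers 1 of the 9 genes, Otc, was lower than in no BDL and none was higher, against 8.44% lower and 13.1% higher of the 13130 genes tested. Without anti-miR mouse 2, 5 were lower, against 13.4% of all genes. Both comparisons share the 5 no BDL mice. Between the BDL groups none of the 9 genes was called, and edgeR called 0 (0%) of all 13746 genes, with 863 at an unadjusted p under 0.05 and 29 called by the Wald test of DESeq2, none of them among the 9.

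**Figure D1:**
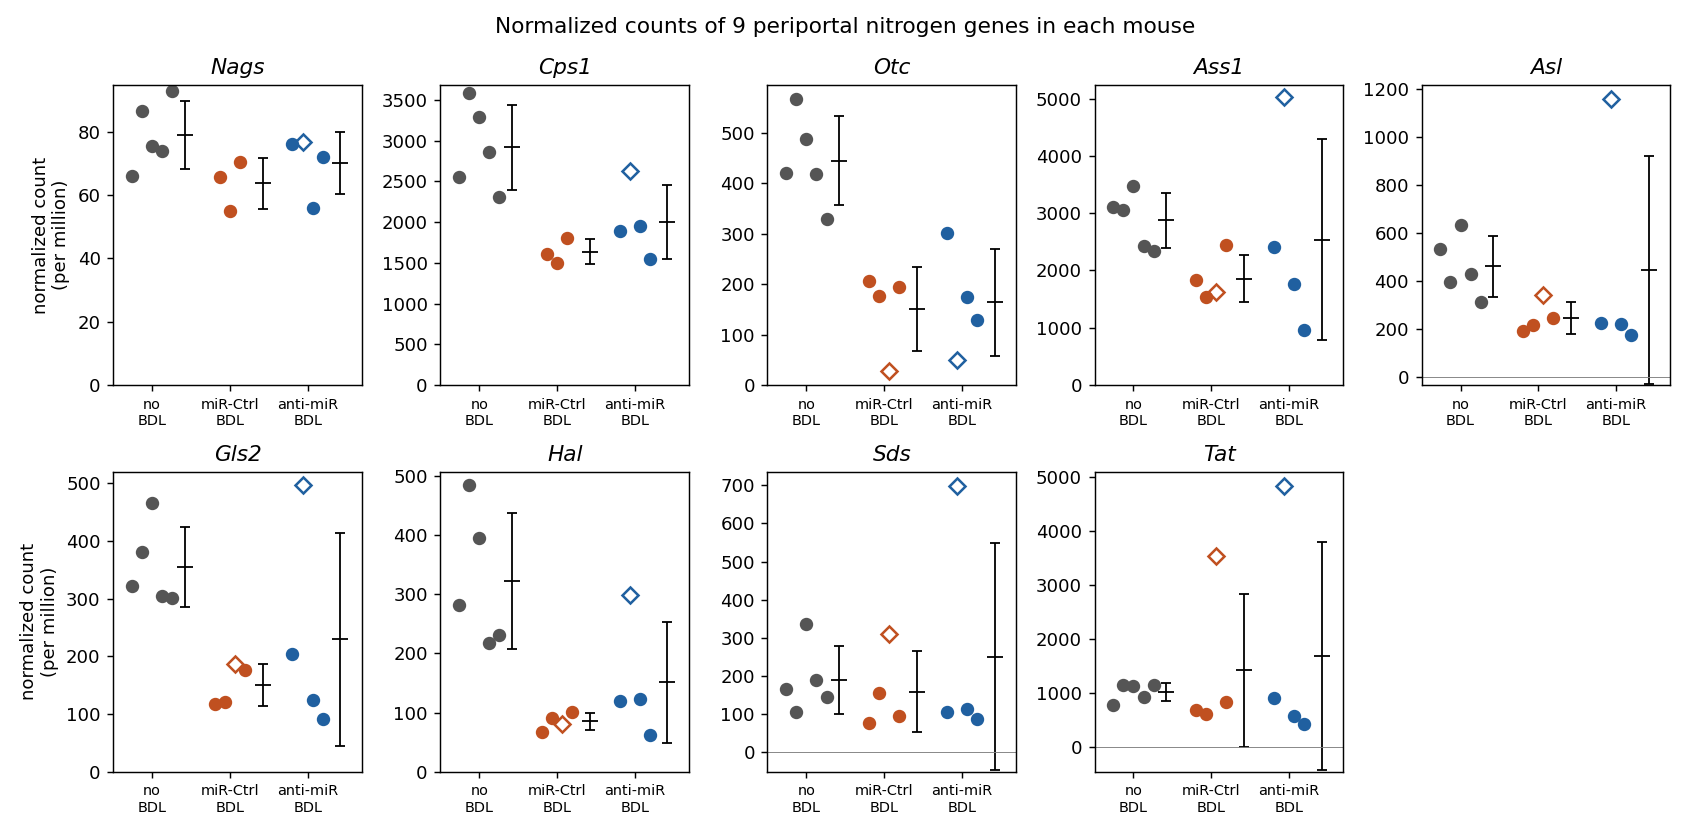
Normalized counts (CPM after TMM scaling) of the 9 genes in each mouse, by group, with the mean and SD of the group in black. Open diamonds are miR-Ctrl mouse 3 and anti-miR mouse 2, and Cps1 and Nags are shown without miR-Ctrl mouse 3. Anti-miR mouse 2 lies above all other mice in Ass1, Asl, Gls2, Sds and Tat, while both diamonds are the lowest points of Otc.

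These fold changes depend on how libraries are scaled, and the direction for several genes does too. TMM factors were 0.68 to 0.97 in no BDL and 1.20 to 1.47 in miR-Ctrl BDL mice, so that a transcript with an unchanged share of all reads counts as lower after BDL. With library size alone the median of all genes moved to 0.79 and that of the 9 genes to -0.13, while the distance between them was -0.87 with TMM and -0.92 with library size. In anti-miR BDL the median of all genes moved to 0.82 and that of the 9 to 0.58. Of all calls in miR-Ctrl BDL, 46.6% were lower with TMM and 2.85% with library size alone. In anti-miR BDL these shares were 39.2% and 1.29%. With library size alone 1 of the 9 was called lower and 2 higher in miR-Ctrl BDL, against 2.10% lower and 71.6% higher of all genes, and 0 lower and 2 higher in anti-miR BDL, against 0.998% lower and 76.6% higher of all genes. Hence lower and higher are used here relative to the bulk of the genes.

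**Figure D2:**
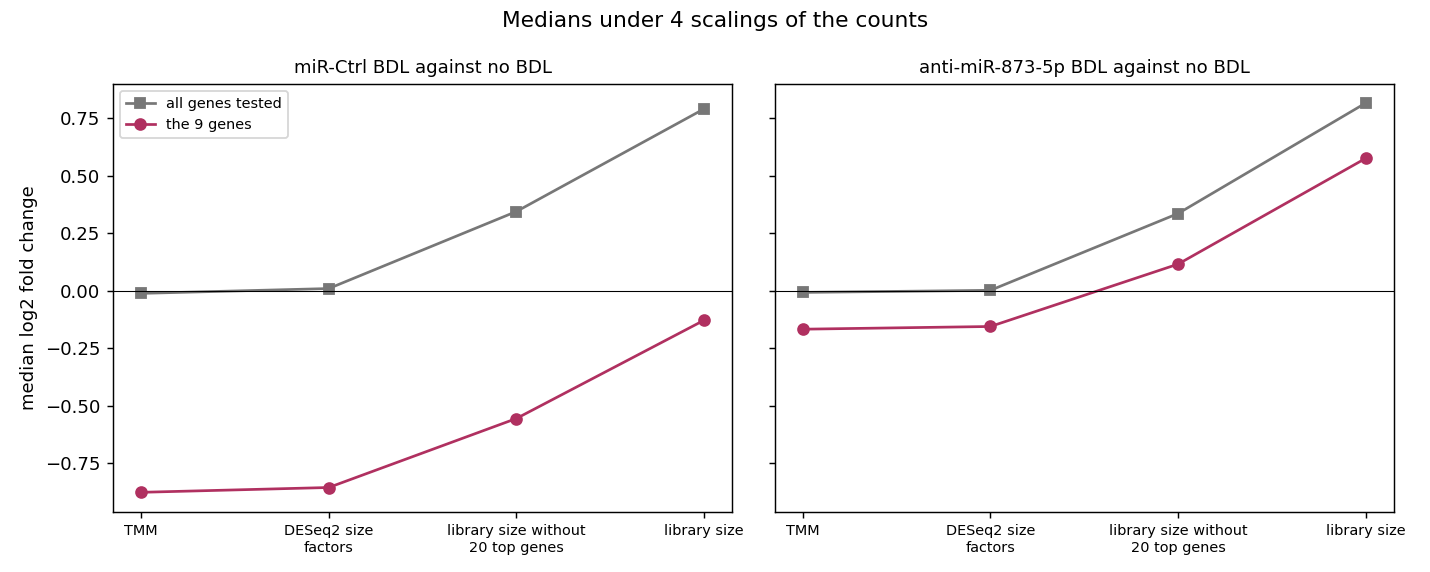
Median log2 fold change of the 9 genes (circles) and of all genes tested (squares) under 4 scalings of the counts. Both medians rise together from TMM to library size, from -0.88 to -0.13 for the 9 genes in miR-Ctrl BDL, and the 9 genes stay below all genes in each scaling shown.

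Nags and Cps1 act at the entry of the cycle in the mitochondrion. Cps1 was at 2556, 3580, 3290, 2856 and 2313 normalized counts in the 5 no BDL mice, at 1611, 1501 and 1801 in miR-Ctrl mice 1, 2 and 4, and at 1887, 2633, 1952 and 1546 in anti-miR mice 1 to 4. All 3 miR-Ctrl mice lay below all no BDL mice, and among the treated mice only mouse 2 reached into the no BDL range. Cps1 fell 1.92-fold in miR-Ctrl BDL (log2 fold change -0.94 ± 0.24 SE, adjusted p = 0.0126), and without mouse 3 the difference was -0.79 ± 0.20 (adjusted p = 0.0106). In anti-miR BDL the difference of -0.52 ± 0.23 did not pass the threshold (adjusted p = 0.131), and without mouse 2 it was -0.68 ± 0.21 with an adjusted p of 0.0392. Nags had between 55.0 and 92.9 normalized counts in all mice. Its groups overlapped, and its differences from no BDL were -0.24 ± 0.13 in miR-Ctrl BDL (adjusted p = 0.186) and -0.15 ± 0.14 in anti-miR BDL (adjusted p = 0.480). Without mouse 3 and without mouse 2, respectively, they were -0.29 ± 0.14 (adjusted p = 0.115) and -0.20 ± 0.15 (adjusted p = 0.339).

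Otc, the X-linked gene of ornithine transcarbamylase, which joins carbamoyl phosphate to ornithine, passed the threshold in each comparison with no BDL. It had 421, 568, 488, 418 and 329 normalized counts in no BDL, 207, 176, 28.4 and 194 in miR-Ctrl BDL and 302, 48.9, 175 and 129 in anti-miR BDL. Every BDL mouse lay below every no BDL mouse. Otc fell 2.88-fold in miR-Ctrl BDL (-1.52 ± 0.47, adjusted p = 0.0300) and 2.66-fold in anti-miR BDL (-1.41 ± 0.43, adjusted p = 0.0426). Without mouse 3 and without mouse 2, respectively, the fall was smaller and its SE narrower, 2.28-fold (-1.19 ± 0.18, adjusted p = 0.000956) and 2.17-fold (-1.12 ± 0.29, adjusted p = 0.0187). Leaving out no BDL mouse 1, 2, 3 or 4 or miR-Ctrl mouse 2 ended the call in miR-Ctrl BDL (highest adjusted p = 0.0636), and leaving out no BDL mouse 1, 2, 3 or 4 or anti-miR mouse 3 or 4 ended that in anti-miR BDL (highest adjusted p = 0.114), as did all 13 mice in 1 fit (adjusted p = 0.0674).

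Ass1 and Asl encode argininosuccinate synthetase and argininosuccinate lyase, which make arginine in the cytosol. Ass1 was at 3107, 3051, 3467, 2424 and 2334 normalized counts in no BDL, at 1833, 1531, 1615 and 2447 in miR-Ctrl BDL and at 2401, 5025, 1764 and 962 in anti-miR BDL. The treated mice spanned more than the range of both other groups. Ass1 fell 1.52-fold in miR-Ctrl BDL (-0.61 ± 0.21, adjusted p = 0.0427) with 1 mouse inside the no BDL range. That call held without no BDL mouse 5 or miR-Ctrl mouse 4 and was lost without any other single mouse (highest adjusted p = 0.113), with -0.55 ± 0.20 without mouse 3. It was also lost with the size factors of DESeq2 (adjusted p = 0.0505), without a filter on low counts (adjusted p = 0.0584) and with all 13 mice in 1 fit (adjusted p = 0.215). Ass1 differed by -0.17 ± 0.41 in anti-miR BDL (adjusted p = 0.801), and by -0.73 ± 0.30 without mouse 2 (adjusted p = 0.0935). Of the 50-base windows of Ass1 transcripts, 38.6% also occur in Gm5424. How reads of shared sequence were counted is not given in the sources used here, so reads of these windows cannot be assigned to Ass1 with certainty. Asl was at 535, 394, 636, 431 and 312 normalized counts in no BDL and at 190, 215, 341 and 244 in miR-Ctrl BDL, a fall of 1.84-fold (-0.88 ± 0.23, adjusted p = 0.0159). Its groups overlapped in miR-Ctrl mouse 3, without which the difference was -1.07 ± 0.22 (adjusted p = 0.00451). The call was lost with all 13 mice in 1 fit (adjusted p = 0.183). In anti-miR BDL it was at 227, 1159, 221 and 174, so that 3 mice lay below all no BDL mice and mouse 2 lay above them. The difference was -0.04 ± 0.53 with mouse 2 (adjusted p = 0.963) and -1.13 ± 0.23 without it (adjusted p = 0.00813).

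Gls2 and Hal were the members with the lowest adjusted p in miR-Ctrl BDL. Gls2 was at 322, 380, 465, 304 and 301 normalized counts in no BDL, at 117, 120, 187 and 176 in miR-Ctrl BDL and at 204, 497, 124 and 92.2 in anti-miR BDL. It fell 2.33-fold in miR-Ctrl BDL (-1.22 ± 0.20, adjusted p = 0.00144), with no overlap of the groups, and the difference was -1.35 ± 0.20 without mouse 3 (adjusted p = 0.000892). In anti-miR BDL it differed by -0.62 ± 0.43 (adjusted p = 0.334), and by -1.31 ± 0.27 without mouse 2 (adjusted p = 0.00782). Hal, the gene of histidine ammonia-lyase, had 283, 485, 395, 217 and 231 normalized counts in no BDL against 67.9, 91.0, 80.7 and 101 in miR-Ctrl BDL, and fell 3.72-fold (-1.90 ± 0.26, adjusted p = 0.000732). Without mouse 3 the difference was -1.87 ± 0.30 (adjusted p = 0.00123). In anti-miR BDL it had 119, 299, 124 and 62.2, where mouse 2 lay inside the no BDL range and the other 3 below it. That difference was -1.08 ± 0.42 (adjusted p = 0.0931), and -1.64 ± 0.34 without mouse 2 (adjusted p = 0.00813). The groups did not overlap and miR-Ctrl BDL was lower for 4 of the 9 genes (Cps1, Otc, Gls2 and Hal), against 14.8% of all genes, and anti-miR BDL was lower without overlap for Otc, against 8.23% of all genes.

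Sds and Tat, the genes of serine dehydratase and tyrosine aminotransferase, had the highest CV of the 9 genes in both BDL groups. The CV of Sds was 66.8% in miR-Ctrl BDL and 119% in anti-miR BDL, and that of Tat 100.2% and 126%, and each rested on 1 mouse. Without miR-Ctrl mouse 3 and anti-miR mouse 2 they were 37.5% and 13.1% for Sds and 16.1% and 38.5% for Tat. In no BDL Sds had 46.9% and Tat 16.3%. Sds had 167, 106, 338, 190 and 145 normalized counts in no BDL, 75.5, 154, 310 and 96.4 in miR-Ctrl BDL and 104, 698, 114 and 87.6 in anti-miR BDL. Its differences from no BDL were -0.23 ± 0.44 in miR-Ctrl BDL (adjusted p = 0.714) and 0.41 ± 0.62 in anti-miR BDL (adjusted p = 0.668). Without mouse 3 the first was -0.78 ± 0.37 (adjusted p = 0.116), and without mouse 2 the second changed sign, to -0.87 ± 0.33 (adjusted p = 0.0730). Tat had 778, 1148, 1124, 915 and 1138 normalized counts in no BDL, 674, 613, 3536 and 834 in miR-Ctrl BDL and 897, 4838, 568 and 424 in anti-miR BDL. In each BDL group 1 mouse lay far above all no BDL mice, and the other mice lay in or below the no BDL range. Its differences from no BDL were 0.48 ± 0.49 (adjusted p = 0.478) and 0.72 ± 0.63 (adjusted p = 0.444), and they changed sign without that mouse, to -0.51 ± 0.18 in miR-Ctrl BDL (adjusted p = 0.0411) and -0.67 ± 0.26 in anti-miR BDL (adjusted p = 0.0751).

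**Figure D3:**
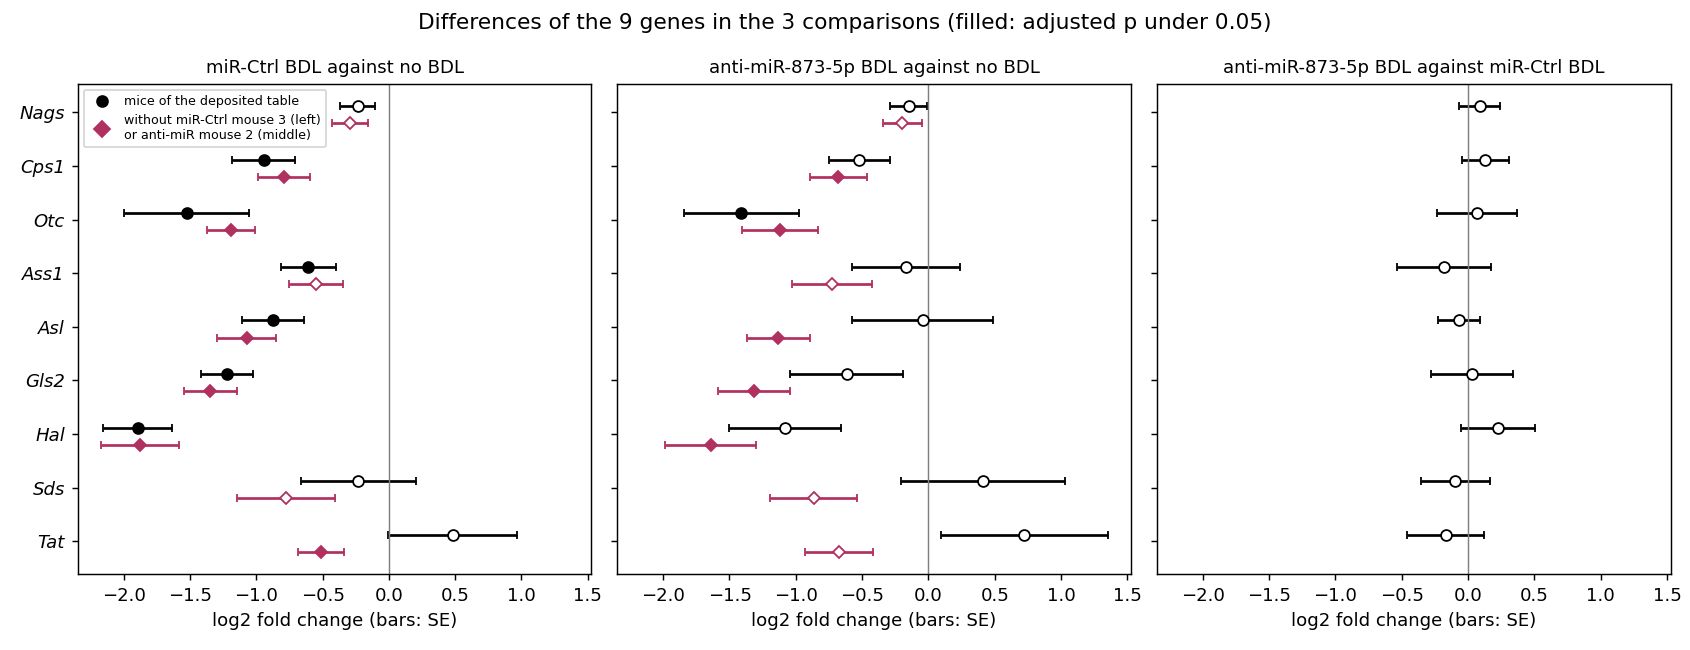
Log2 fold changes of the 9 genes in the 3 comparisons with SE, in edgeR with TMM scaling. Circles use the mice of each deposited table and diamonds leave out miR-Ctrl mouse 3 (left) or anti-miR mouse 2 (middle), and filled symbols passed an adjusted p of 0.05. In the middle panel 1 circle and 5 diamonds are filled, and in the right panel none is.

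Both mice without a column in the table of BDL groups shared part of their pattern. In anti-miR mouse 2, Tat was 7.68 times, Sds 6.85 times, Asl 5.60 times, Gls2 3.55 times and Hal and Ass1 2.94 times the mean of the other 3 treated mice, and Cps1 1.47 times, whereas Otc was 4.13 times lower. In miR-Ctrl mouse 3, Tat was 5.00 times and Sds 2.86 times the mean of the other 3, Otc was 6.77 times lower and Cps1, in contrast to anti-miR mouse 2, 1.72 times lower. Asl of this mouse was 1.58 times and Gls2 1.36 times that mean, while Hal (0.931 times), Ass1 (0.834 times) and Nags (1.15 times) were near it. For this mouse Cps1, Nags, Glul and Fbp1 were read, together with the other 3, from the table against no BDL, the only one of the tables with its column. Pck1, the gluconeogenic enzyme phosphoenolpyruvate carboxykinase, was also high in both, with 4931 normalized counts in anti-miR mouse 2 and 2531 in miR-Ctrl mouse 3, against 581 to 1643 in the other 6 BDL mice. The gluconeogenic genes G6pc and Fbp1 were not high in both. In anti-miR mouse 2 they were 2.10 and 0.754 times the mean of the other 3, and in miR-Ctrl mouse 3 they were 0.518 and 1.98 times. Glul was at 67.8 in anti-miR mouse 2, against 185 to 661 in the other treated mice. In miR-Ctrl mouse 3 it was at 223, within the 185 to 332 of the rest of its group. The summed macrophage markers of both mice (312 and 381 normalized counts) were the lowest of their groups, as were the summed stellate cell markers (193 and 207), and the summed endothelial markers (46.6 and 30.9) were the 2 lowest sums of all 13 mice, while the summed hepatocyte markers (133570 and 121821) were the highest and second highest of their groups. Other sums went opposite ways in these mice. The summed neutrophil markers of miR-Ctrl mouse 3 (237) were the highest of all mice, against 19.9 to 68.0 in the rest of its group. Those of anti-miR mouse 2 (14.3) were the lowest of its group. The summed cholangiocyte markers were the highest of the group in miR-Ctrl mouse 3 (86.6) and the lowest in anti-miR mouse 2 (39.99). The part of these cell types in the pattern was not tested.

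**Figure D4:**
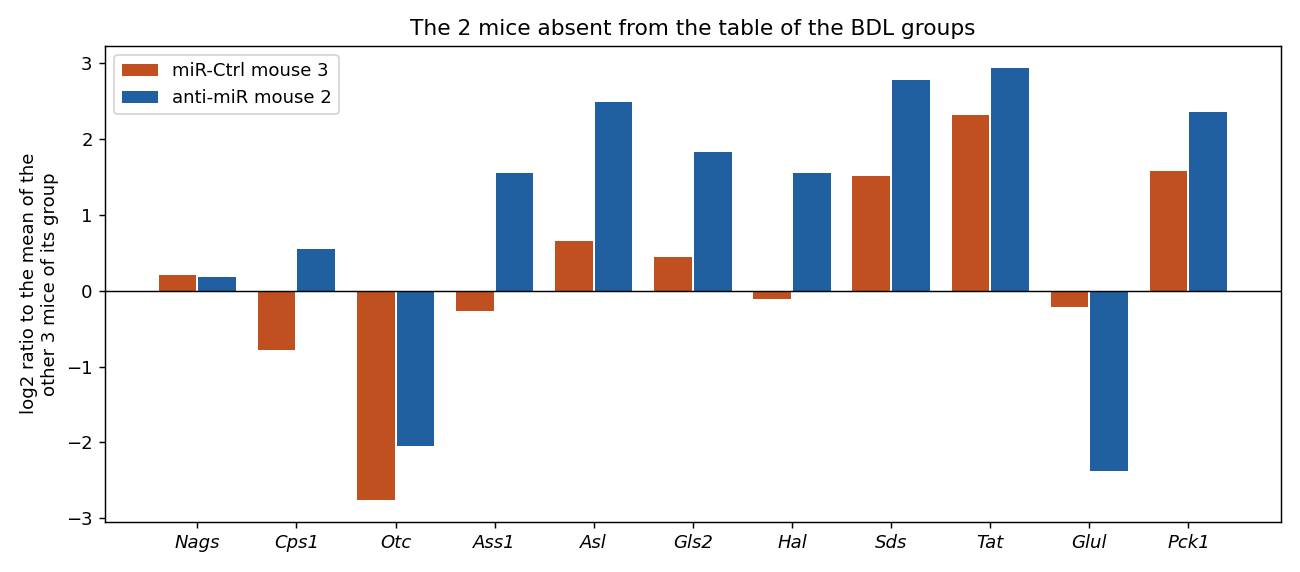
Log2 ratio of the normalized count of miR-Ctrl mouse 3 and anti-miR mouse 2 to the mean of the other 3 mice of their group, for the 9 genes, Glul and Pck1. Bars above 0 are higher than the group. Tat, Sds and Pck1 are high and Otc is low in both mice.

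When the BDL groups were compared with each other, with 3 mice in each, the log2 fold changes of the 9 genes ran from -0.18 for Ass1 to 0.23 for Hal, with a median of 0.03, and adjusted p from 0.904 to 0.990. The 95% interval of each of the 9 spanned 0. The 95% intervals were -0.29 to 0.55 for Cps1, -0.64 to 0.78 for Otc, -0.44 to 0.31 for Asl and -0.43 to 0.88 for Hal. The smaller number of genes past the threshold against no BDL in treated than in control-treated mice does not show a difference between the BDL groups. With all 4 mice of each group, the difference for Asl was 0.86 and for Sds 0.67, neither of them called. Over the alternative settings the difference reached 0.83 for Hal and 0.62 for Gls2, and neither gene was called in any of them.

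Zonation was read from a ratio within each mouse, which does not depend on the scaling of libraries. Gls2 over Glul, the periportal glutaminase over the pericentral synthetase, was 0.27, 0.33, 0.47, 0.26 and 0.32 in no BDL and 0.63, 0.47, 0.84 and 0.53 in miR-Ctrl BDL. Mouse 2 of miR-Ctrl BDL overlapped with mouse 3 of no BDL. The mean log2 ratio was higher by 0.91 in miR-Ctrl BDL, with p = 0.0238 in an exact two-sided permutation test and 0.143 after adjustment over 6 tests, so it did not pass. With the Glul counts of the other tables the no BDL ratios were 0.27 to 0.49. In anti-miR BDL the ratio was 0.31, 7.34, 0.67 and 0.45, a difference of 1.44 (exact permutation p = 0.0714, adjusted 0.143) that was 0.43 without mouse 2. In miR-Ctrl BDL both genes of the ratio fell, by 2.11 for Glul and 1.22 for Gls2 on the log2 scale. Cps1 over Alb differed by -0.11 in miR-Ctrl BDL (exact permutation p = 0.595) and by 0.34 in anti-miR BDL (exact permutation p = 0.0714, adjusted 0.143). Between the BDL groups the smallest p that 3 against 3 mice allow is 0.1, and the tests gave 0.5 for Gls2 over Glul and 0.2 for Cps1 over Alb.

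Of 15 wider genes of the urea cycle and ammonia metabolism, 8 were lower and 0 higher in miR-Ctrl BDL, with a median of -0.51, against 16.6% lower and 19.1% higher of all genes. Leaving out 1 mouse gave 5 lower (without miR-Ctrl mouse 2) to 12 lower (without miR-Ctrl mouse 3), against 13.3% and 20.1% of all genes. Scaled by library size alone, 1 was lower and 2 were higher, against 2.10% lower and 71.6% higher of all genes, and the median was 0.26, against 0.79 over all genes. The carbonic anhydrase Car5a, which supplies bicarbonate to Cps1, fell by 1.97 on the log2 scale (adjusted p = 0.00687), from 59.7, 61.0, 75.4, 66.0 and 41.0 normalized counts in no BDL to 18.4, 15.9, 3.17 and 22.7. Like Otc it was lowest in miR-Ctrl mouse 3, and in anti-miR BDL in mouse 2 (36.3, 5.01, 20.04 and 15.4). Aspa (aspartoacylase) had -1.55, the amino acid transporter Slc38a4 -0.92 and the aspartate carrier Slc25a13 (citrin) -0.89. In anti-miR BDL 3 of the 15 were lower, against 8.44% of all genes. The share of all genes moved with the mouse left out, to 13.4% without mouse 2, 2.68% without mouse 3, 3.34% without mouse 4 and 4.48% to 5.52% without no BDL mouse 1, 2, 3 or 4. In these fits the count of the list was 6, 0, 1 and 1, and with library size alone 0 were lower and 5 higher, against 0.998% lower and 76.6% higher of all genes.

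Another list held paralogs and enzymes that use the same substrates. Of 7, 2 rose and 0 fell in miR-Ctrl BDL, with a median of 0.71, and 1 of 6 tested was higher in anti-miR BDL, against 19.1% and 13.1% of all genes. Leaving out any no BDL mouse or anti-miR mouse 3 or 4 gave 0 in anti-miR BDL, where 8.83%, 8.64%, 8.32%, 8.63% and 14.5% (no BDL mice 1 to 5), 6.78% and 7.13% of all genes were higher, and leaving out anti-miR mouse 2 gave 2, against 18.4%. Library size alone gave 5 higher in miR-Ctrl BDL and 4 in anti-miR BDL, where 71.6% and 76.6% of all genes were higher with this scaling. Sdsl, a relative of Sds, rose by 1.02 ± 0.23 (adjusted p = 0.00754), a call lost with all 13 mice in 1 fit (adjusted p = 0.0611). Nos2, the inducible nitric oxide synthase that uses arginine, had 0, 0, 0, 1 and 1 counts in no BDL, 20, 78, 262 and 21 in miR-Ctrl BDL (adjusted p = 0.00251) and 3, 7, 75 and 24 in anti-miR BDL, where it was too low to be tested.

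The other lists of amino acid breakdown are read against the 16.6% of all genes that were lower. All 7 tested genes of aromatic and histidine breakdown were lower in miR-Ctrl BDL (median -0.97), among them Hpd (-1.76), Ftcd (-1.06), Gstz1 (-1.05) and Amdhd1 (-0.97). Tryptophan breakdown had 7 of 8 lower, with Haao (-1.65), Afmid (-1.61), Tdo2 (tryptophan dioxygenase, -1.60) and Aadat (-1.36). In the breakdown of serine, glycine, threonine, alanine and proline 8 of 11 tested were lower, led by Prodh2 (-2.03), Sardh (-1.56), Prodh (-1.47) and Agxt (-1.30), and in that of branched-chain amino acids and lysine 16 of 19, led by Gcdh (-1.50), Acadsb (-1.36), Hibadh (-1.23) and Mccc2 (-1.13). None of the genes on these 4 lists was higher, against 19.1% of all genes. Without mouse 3, 1 gene was higher, on the list of tryptophan breakdown, against 22.2% of all genes. With library size alone the counts in miR-Ctrl BDL were, in the same order, 1, 4, 4 and 2 lower and 0, 1, 1 and 2 higher, against 2.10% lower and 71.6% higher of all genes. In anti-miR BDL 2 of 7, 5 of 8, 6 of 11 and 10 of 19 were lower, against 8.44% of all genes. Without mouse 2 these counts were 7, 7, 7 and 15, against 13.4% of all genes, and without mouse 3 they were 0, 5, 4 and 6, against 2.68%. Aromatic and histidine breakdown had 1 lower without anti-miR mouse 4 or no BDL mouse 1 or 2, against 3.34%, 4.48% and 4.51% of all genes. The counts in anti-miR BDL with library size alone were 0, 1, 0 and 0 lower and 0, 1, 2 and 3 higher, against 0.998% lower and 76.6% higher of all genes.

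**Figure D5:**
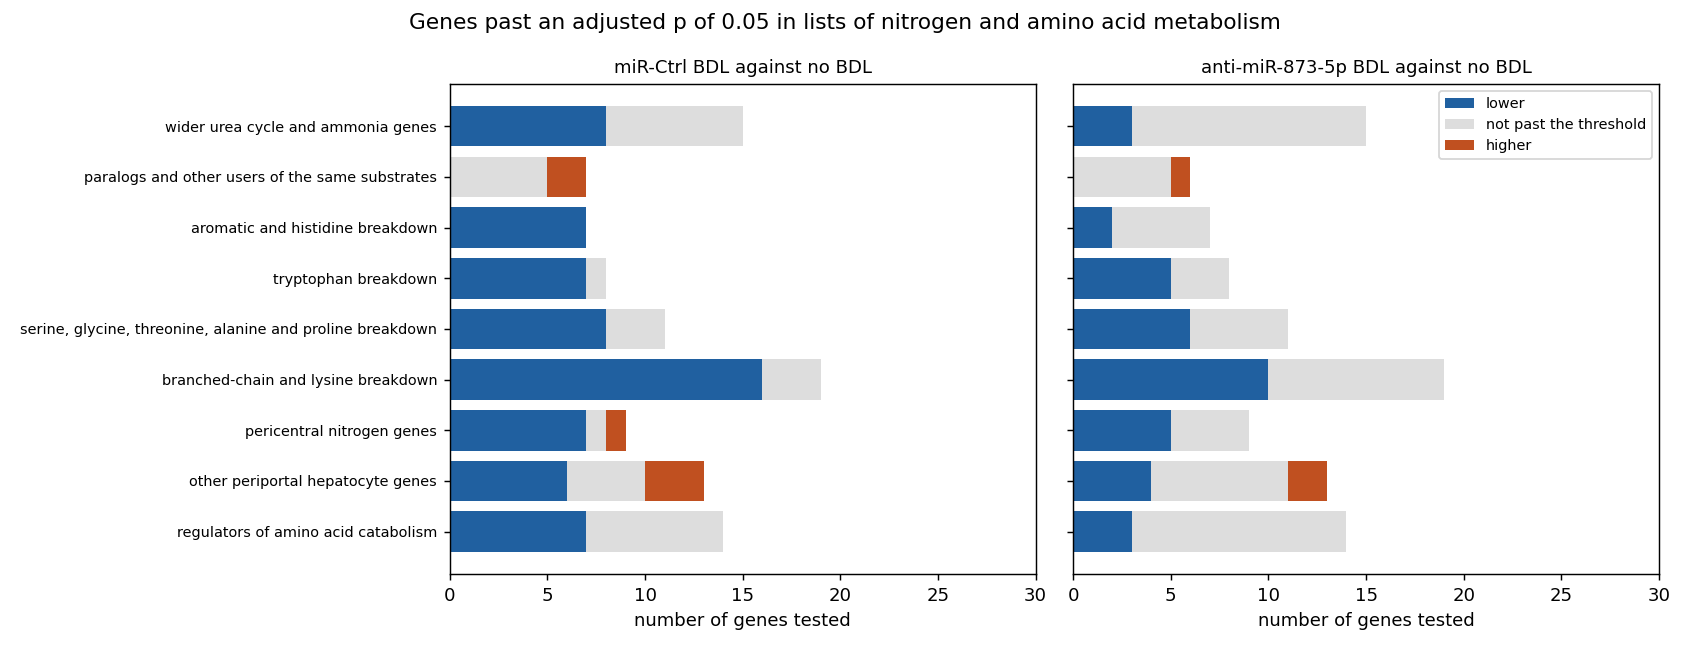
Number of genes lower, higher or not past an adjusted p of 0.05 in 9 lists, in both comparisons with no BDL, with TMM scaling. The lists hold genes of nitrogen and amino acid metabolism, regulators and other periportal or pericentral genes. Lower genes prevail in 8 lists, and the list of paralogs holds 2 higher and 0 lower genes in miR-Ctrl BDL, while with library size alone, where 71.6% and 76.6% of all genes are higher, lower genes prevail in 4 lists in miR-Ctrl BDL and 1 in anti-miR BDL.

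Most genes on a list of pericentral genes, not all of them with a part in nitrogen handling, were lower as well. Of 9 pericentral genes 7 were lower and 1 higher in miR-Ctrl BDL, with a median of -1.20, and 5 were lower in anti-miR BDL, against 16.6% and 8.44% of all genes lower. The count in anti-miR BDL was 2 without anti-miR mouse 3 or 4 or no BDL mouse 2, 3 or 4, and 3 without no BDL mouse 1, where the share of all genes was also lower (2.68%, 3.34%, 4.51%, 5.52%, 4.49% and 4.48%). With library size alone 4 were lower and 1 higher in miR-Ctrl BDL, against 2.10% lower and 71.6% higher of all genes, and 2 lower and 1 higher in anti-miR BDL, against 0.998% lower and 76.6% higher of all genes. Slc1a2, a glutamate transporter, had -2.35 ± 0.25 (adjusted p = 0.000225), from 114 to 173 normalized counts in no BDL to 15.0 to 37.3. Glul fell by 2.11 (adjusted p = 0.000122), Oat (ornithine aminotransferase) by 1.72 and the transcription factor Tbx3 by 1.67 on the log2 scale, and Slc1a4, a neutral amino acid transporter, rose by 1.43, a call lost without miR-Ctrl mouse 1. Of 13 other periportal genes 6 were lower and 3 higher in miR-Ctrl BDL, against 16.6% and 19.1% of all genes, and 2 and 4 with library size alone, against 2.10% and 71.6%. G6pc, the gluconeogenic glucose-6-phosphatase, had -3.28 ± 0.54, Sult5a1 -2.89 and Cyp2f2 -1.66 (a call lost without miR-Ctrl mouse 2, adjusted p = 0.0522), while Ctsc (cathepsin C) rose by 1.21.

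Of 14 regulators of amino acid catabolism 7 were lower and 0 higher in miR-Ctrl BDL, against 16.6% lower and 19.1% higher of all genes. Scaling by library size alone gave 1 lower and 4 higher, against 2.10% lower and 71.6% higher of all genes. Ppara, the fasting-induced nuclear receptor, fell by 1.86 ± 0.29 (adjusted p = 0.00133), Cebpa by 1.11, Klf15 by 1.09 and the bile acid receptor Nr1h4 by 0.97 on the log2 scale. Hnf4a differed by -0.24 (adjusted p = 0.318). In anti-miR BDL 3 were lower, against 8.44% of all genes, and 0 without anti-miR mouse 3 or 4 or no BDL mouse 1, 2 or 4, against 2.68%, 3.34%, 4.48%, 4.51% and 4.49% of all genes. Scaling by library size alone gave 0 lower and 8 higher, against 0.998% lower and 76.6% higher of all genes. Ppara (-0.96, adjusted p = 0.0576), Klf15 (-0.20) and Nr1h4 (-0.46) did not pass. Klf15 was at 86.1, 180, 79.2 and 66.1 normalized counts in treated mice, with the highest in mouse 2, at 53.6, 58.3, 50.1 and 57.3 in miR-Ctrl BDL and at 88.8, 139, 157, 129 and 81.0 in no BDL. Its 3 treated mice of the table of the BDL groups lay above the 3 miR-Ctrl mice (0.45 ± 0.12), with an adjusted p of 0.757, as did those of 6.59% of all genes.

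Markers of other cell types moved with the BDL groups. All 7 cholangiocyte markers were higher in both comparisons with no BDL, with medians of 2.38 in miR-Ctrl BDL and 2.80 in anti-miR BDL. Summed over the 6 of them with the same counts in all tables, with Sox9 the most abundant, they reached 11.3 to 16.1 normalized counts in no BDL, 49.3 to 86.6 in miR-Ctrl BDL and 39.99 to 108 in anti-miR BDL. Krt19 had 0.48 to 1.81 normalized counts in no BDL and 7.19 to 19.0 in BDL mice. Of 7 macrophage markers 5 were higher in miR-Ctrl BDL and 2 in anti-miR BDL, against 19.1% and 13.1% of all genes. Summed over 8 hepatocyte markers, of which Alb made up 49.5%, no BDL mice had 141347 to 155321 normalized counts, miR-Ctrl BDL 90281 to 126253 and anti-miR BDL 81326 to 133570, with no overlap of BDL and no BDL mice. By test 3 of the 8 were lower and 1 (Trf) higher in miR-Ctrl BDL, and 2 lower in anti-miR BDL, against 16.6% and 8.44% of all genes lower. In whole liver RNA, fewer hepatocytes and less of these transcripts per hepatocyte cannot be told apart, and the part of cell composition in the fall of the 9 genes was not tested.

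Patterns most like 2 of the members were ranked by Pearson's r of log2 normalized counts, as a description over mice that differ by group. Over 12 mice Cps1 was most like Ndrg2 (r = 0.969), Amdhd1 (0.967), Wdtc1 (0.966), Zfp110 (0.963) and Slc6a12 (0.961). Among the members Hal (0.965) and Gls2 (0.904) were nearest and Otc (0.488) farthest. Over 13 mice Sds was most like Got1 (0.982), 4833420G17Rik (0.955), Slc7a2 (0.949), Egln2 (0.948) and Alkbh3 (0.946), and among the members Asl (0.863) and Tat (0.821) were nearest, whereas Otc had -0.427. Anti-miR mouse 2 had the highest Sds count of the 13 mice. Cps1 has no count for miR-Ctrl mouse 3 in the tables used for its levels.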

How the data were processed

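The 13 livers were profiled by RNA sequencing. TruSeq RNA v2 libraries were read single-end and aligned by the authors to mm10 using TopHat, and the deposited values are raw read counts for each Entrez gene, in a separate table for every comparison. The counting program is not given in the sources used here. All columns were used, and 0 columns had no sample. Symbols came from RefSeq (GRCm38.p6), which matched 167 of 167 names on the gene lists. The members, lists and rules were chosen with earlier results of these data known. Results of 4 genes on these lists are not reported here, and counts and medians over lists were computed without them. Named are the 9 members and, from each list, at most 4 genes past the threshold with the largest absolute log2 fold change in miR-Ctrl BDL, besides any paralog, pericentral gene or regulator. Pck1, Fbp1 and the markers were named after their values were seen. Likeness was ranked among genes with a mean of at least 10 normalized counts, and the members are given apart from that ranking.

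Counts were filtered with filterByExpr, scaled by TMM and tested in edgeR 4.0.16 (R 4.3.3) within each table, with Benjamini-Hochberg adjustment at 0.05. The steps were also run on simulated counts in which a small share of genes was changed, equally many up and down. That simulation does not cover the dependence on scaling. The SE was derived from the log2 fold change and the F statistic. Levels were put on 1 scale over 13 mice by TMM on the 22246 genes with identical counts. Alternatives were other scalings and filters, DESeq2 1.42.0, 1 fit of all mice, a replicate block and leaving out each mouse. Depth was 12185333 to 19689037 counts per mouse.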

Additional observations from a re-analysis of the deposited data

Results flagged for a closer look

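Dixon's test, run for each gene over the 4 or 5 mice of a group, marked 4 of 29 such sets. Chance marks about 1 in 20 independent sets. These sets share mice, Cps1 and Nags of no BDL entered under both sets of counts, and Asl, Sds and Tat moved together. The 4 marks, all on anti-miR mouse 2 or miR-Ctrl mouse 3, therefore cannot be set against that rate. In anti-miR BDL, mouse 2 was far above the other 3 mice for Asl (1159 normalized counts against 174 to 227), Sds (698 against 87.6 to 114) and Tat (4838 against 424 to 897). In miR-Ctrl BDL, mouse 3 was far above the others for Tat (3536 against 613 to 834). Neither mouse has a column in the table that sets the BDL groups against each other.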

How the results depend on the processing

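With library size alone the count of members called was 3 (1 lower and 2 higher) in miR-Ctrl BDL and 2 (both higher) in anti-miR BDL, against 73.7% and 77.6% of all genes. Without the 20 most counted genes in the library size it was 2 and 0 (45.7% and 36.0% of all genes), and with all 13 mice in 1 fit, which holds 7 members, 3 and 0 (34.6% and 24.3%). DESeq2's Wald test called 3 of the 7 members to which it gave an adjusted p in anti-miR BDL (27.6%). DESeq2's size factors in edgeR and no filter on low counts gave 5 in miR-Ctrl BDL (35.3% and 26.6%), without Ass1. Without the 20 most counted genes the calls of Cps1 (adjusted p = 0.106), Otc (0.0909), Ass1 (0.376) and Asl (0.0651) in miR-Ctrl BDL were lost. Leaving out 1 mouse gave 4 to 6 and 0 to 5 members, against 28.8% to 42.3% and 9.46% to 31.7% of all genes, with 5 in anti-miR BDL without its mouse 2 (31.7%) and 0 without its mouse 3 (9.46%) or 4 (10.5%) or no BDL mouse 1, 2, 3 or 4 (13.1% to 13.8%). The cause of these shifts was not tested.

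Directions turned with library size alone in miR-Ctrl BDL for Nags (0.56), Ass1 (0.18) and Sds (0.45), and in anti-miR BDL for Nags (0.67), Cps1 (0.28), Ass1 (0.58), Asl (0.66), Gls2 (0.11), Amdhd1 (0.24), Ftcd (0.072), Gstz1 (0.074), Cebpa (0.069), Klf15 (0.56), Nr1h4 (0.36), Prodh (0.15), Slc38a4 (0.29) and Slc25a13 (0.22). Without the 20 most counted genes they turned for Nags (0.11) and Sds (0.040) in miR-Ctrl BDL, and for Nags (0.19), Ass1 (0.12), Asl (0.21) and Klf15 (0.10) in anti-miR BDL. Tat turned to -0.51 in miR-Ctrl BDL with the 3 mice kept and the counts of the other tables, an alternative chosen after seeing the data.

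Between the BDL groups, with all 13 mice in 1 fit, Ass1 (0.45), Asl (0.85), Sds (0.66) and Tat (0.25) turned, and with all 4 mice per group Ass1 (0.46), Asl (0.86), Sds (0.67), Tat (0.26) and the log2 ratio of Gls2 over Glul (0.60, with Glul from 2 tables).

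Leaving out 1 mouse, the log2 fold change ran in miR-Ctrl BDL from -0.78 to 0.075 for Sds and -0.51 to 0.73 for Tat, and in anti-miR BDL from -0.73 to 0.10 for Ass1, -1.13 to 0.22 for Asl, -0.87 to 0.72 for Sds and -0.67 to 1.04 for Tat. Between the BDL groups it ran from -0.0066 to 0.21 for Nags, -0.35 to 0.31 for Otc, -0.52 to 0.10 for Ass1, -0.15 to 0.048 for Asl, -0.35 to 0.26 for Gls2, -0.30 to 0.24 for Sds and -0.52 to 0.051 for Tat. The log2 ratio of Gls2 over Glul ran from 0.75 to 1.05 in miR-Ctrl BDL and 0.43 to 1.96 in anti-miR BDL, and that of Cps1 over Alb from -0.25 to 0.0091 and 0.27 to 0.44.

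Mouse numbers share only a number, and same-numbered mice correlated at -0.20 to 0.35. A fit with the replicate block called 5 members in miR-Ctrl BDL, without Ass1, and 1 in anti-miR BDL, with Hal in place of Otc, against 31.1% and 16.7% of all genes. Under the replicate block Sds turned to -0.30 in anti-miR BDL, and Otc (-0.025), Gls2 (-0.063) and Sds (0.16) turned between the BDL groups.

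The comparison of the BDL groups rests on 3 mice in each, and its 95% intervals for the 9 genes held differences of either sign.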

Other observations

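Other cell types were read from lists of markers, beside 19.1% higher and 16.6% lower of all genes in miR-Ctrl BDL and 13.1% and 8.44% in anti-miR BDL. Of 5 proliferating cell markers, all 5 were tested and higher in miR-Ctrl BDL. In anti-miR BDL 4 of the 5 were tested, and these 4 were higher. Mki67, a marker of cycling cells, rose by 3.67 and 2.86 on the log2 scale. Their sum was 3.53 to 8.03 normalized counts in no BDL, and 102, 33.7, 15.9 and 88.6 in miR-Ctrl BDL, where mouse 3 was lowest. In anti-miR BDL it was 43.5, 7.21, 31.2 and 52.4, where mouse 2 was lowest and lay within the no BDL range.

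Of 6 neutrophil markers, 4 were tested in miR-Ctrl BDL and 3 in anti-miR BDL, and each of these was higher. A neutrophil or proliferating cell marker with few counts in no BDL is tested only if BDL mice carry it past the filter. That all tested ones were higher is therefore partly set by the filter. Of 7 markers of stellate cells and myofibroblasts 4 were higher in each comparison with no BDL, and the collagen gene Col1a1 rose by 3.59 in miR-Ctrl BDL and 4.03 in anti-miR BDL on the log2 scale. Of 6 endothelial markers 1, Kdr, was lower in anti-miR BDL (-1.27), and its difference of -1.35 in miR-Ctrl BDL had an adjusted p of 0.0808. Markers of T and natural killer cells were near the limit of detection, with sums of 0.455 to 6.36 normalized counts, and the 1 gene tested did not pass in miR-Ctrl BDL.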
